A study of Homo sapiens with 8 samples.

Results

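MicroRNA host genes are the longer RNA genes whose transcripts contain microRNA hairpins, and 6 of them were followed here by RNA sequencing in H1, a long-established line of human embryonic stem cells. They were MIR17HG, MIR22HG, MIR210HG, MIRLET7BHG, MIR99AHG (also listed as LINC00478) and MIR600HG. The members were taken by symbol: every entry whose RefSeq accession belongs to one of these genes was used, which gave 14 transcripts of the 49235 in each table and 6 genes of 25558. No measured value is part of that rule, but the members were chosen with earlier results of these data known. The cells of each line carried a doxycycline-inducible short hairpin RNA under puromycin selection. The hairpin was directed against EXOSC3, a core subunit of the RNA exosome (shEXOSC3), or was non-silencing (shNS). Both lines were sampled with doxycycline and without it on days 5 and 7, which gave 8 groups of 1 library each, all from cells at passages 40 to 60, cultured without feeder cells in medium with basic fibroblast growth factor. No source used here says whether a line was 1 clone or a pool. With 1 library per group there was no replicate of any group.

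A host transcript is made in the nucleus as a primary microRNA. The Microprocessor, formed by DROSHA and DGCR8, cuts the hairpin out of an exon or an intron, DICER1 trims it, and the mature strand is loaded on an Argonaute protein, where the seed at its 5′ end pairs with target messages. What remains of the host is a non-coding RNA fragment, and the RNA exosome is a nuclease complex known to degrade many nuclear RNAs of that kind.

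The mature sequences below show which microRNAs each host carries and which of them share a seed. They come from RefSeq on GRCh38.p14, in which all 16 microRNA symbols inside the 6 loci had an entry. The 14 sequences are printed 5′ to 3′ with the seed, bases 2 to 8, in capitals. The first 6 lie in MIR17HG, the next 2 in MIR22HG and MIR210HG, let-7a and let-7b in MIRLET7BHG, let-7c, miR-99a and miR-125b in MIR99AHG, and miR-600 in MIR600HG. MIR3619 and MIR4763, which also lie in MIRLET7BHG, are not printed.
miR-17-5p: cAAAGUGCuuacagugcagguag
miR-20a-5p: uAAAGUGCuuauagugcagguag
miR-18a-5p: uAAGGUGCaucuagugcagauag
miR-19a-3p: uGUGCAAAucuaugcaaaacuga
miR-19b-3p: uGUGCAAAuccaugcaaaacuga
miR-92a-3p: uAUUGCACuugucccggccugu
miR-22-3p: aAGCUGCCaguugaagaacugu
miR-210-3p: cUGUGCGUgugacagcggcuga
let-7a-5p: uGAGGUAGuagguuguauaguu
let-7b-5p: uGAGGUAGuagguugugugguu
let-7c-5p: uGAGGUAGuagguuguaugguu
miR-99a-5p: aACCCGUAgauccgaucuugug
miR-125b-5p: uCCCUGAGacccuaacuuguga
miR-600: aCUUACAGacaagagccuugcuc
The 14 sequences hold 10 different seeds. MiR-17-5p and miR-20a-5p share one, miR-19a-3p and miR-19b-3p share another, and the 3 let-7 sequences also share one although they come from the 2 host genes MIRLET7BHG and MIR99AHG.

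The hosts differ in where the hairpins sit. In MIR17HG (hg19 chr13:92000074-92006829) the 6 hairpins of the polycistron lie in an exon of the long transcript NR_027350 and in an intron of the short, spliced NR_027349. In MIR22HG (chr17:1614798-1619566) miR-22 lies in an exon of NR_028504, and its place in the other MIR22HG transcripts was not determined. In MIR210HG (chr11:565657-568457) miR-210 lies in an intron of the single transcript NR_038262. In MIRLET7BHG (chr22:46481877-46509808) let-7a and let-7b lie in an exon of NR_110479 and outside NR_027033. In MIR99AHG (chr21:17442842-17982094) its 3 microRNAs lie in introns of all 4 transcripts. In MIR600HG (chr9:125871773-125877756) miR-600 lies in an exon of the single transcript NR_026677. In the deposited tables microRNA entries overlapped these loci, and 0 entries of any other kind did.

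The values are FPKM (fragments scaled to transcript length and library size), summed over the transcripts of a gene unless a transcript is named. A log2 value is log2(FPKM + 1), on which differences between low values come out too small. The doxycycline ratio compares the treated with the untreated library of the same line and day. For the adjusted difference the log2 ratio of shNS was subtracted from that of shEXOSC3 for each day, and a gene passed by size at an absolute value of at least 1, since groups of 1 library allow no test within a day. Genes needed a mean of at least 1 FPKM over the 8 libraries, which 13116 genes met, among them MIR17HG, MIR22HG, MIR210HG and MIR600HG; MIRLET7BHG and MIR99AHG did not.

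EXOSC3, the targeted gene, was at 25.2 FPKM without and 11.3 FPKM with doxycycline in shEXOSC3 on day 5, and the day 7 values were 25.2 and 12.3 FPKM. The shNS values were 27.3 and 27.8 FPKM on day 5, then 30.3 and 27.4 FPKM, so both treated shEXOSC3 libraries lay below the 6 others. Depth estimated from the spacing of low FPKM values ran from 1.45e+07 to 3.69e+07 fragments per library, and the treated shNS libraries were 1.59 and 1.34 times as deep as their untreated partners. The 3 most abundant transcripts took 24.0 to 27.8% of the summed FPKM in the day 5 libraries and 6.25 to 7.21% in the day 7 libraries. All 8 embryonic stem cell markers listed, POU5F1, NANOG and SOX2 among them, were at 1 FPKM or more in all 8 libraries, and none (0) of the 4 endoderm or the 4 mesoderm markers was. Of 8 fibroblast or stromal markers, 4 reached 1 FPKM in all 8 libraries (COL1A1, COL1A2, THY1 and PDGFRB), while DCN and LUM were at 0 in all 8. Of 6 neural progenitor markers only NES did. In bulk RNA, fewer cells of a type and less RNA per cell cannot be told apart.

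MIR17HG was the most abundant of the 6 hosts on both days. On day 5 its 4 libraries ran from 12.1 to 15.8 FPKM, followed by MIR600HG at 5.43 to 7.78 FPKM, MIR210HG at 1.63 to 2.16 FPKM and MIR22HG at 0.511 to 1.06 FPKM. MIRLET7BHG (0.00622 to 0.0662 FPKM) and MIR99AHG (0.0137 to 0.0560 FPKM) were last, and their ranges overlapped. On day 7 MIR17HG ran from 56.8 to 75.4 FPKM. MIR600HG at 3.72 to 4.67 FPKM and MIR22HG at 2.89 to 5.52 FPKM came next and overlapped each other. MIR210HG at 0.0979 to 0.300 FPKM overlapped MIR99AHG at 0.0502 to 0.108 FPKM, and MIRLET7BHG came last at 0 to 0.0111 FPKM. The order of MIR22HG and MIR210HG was thus opposite on the 2 days, with no overlap between them on either.

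**Figure D1:**
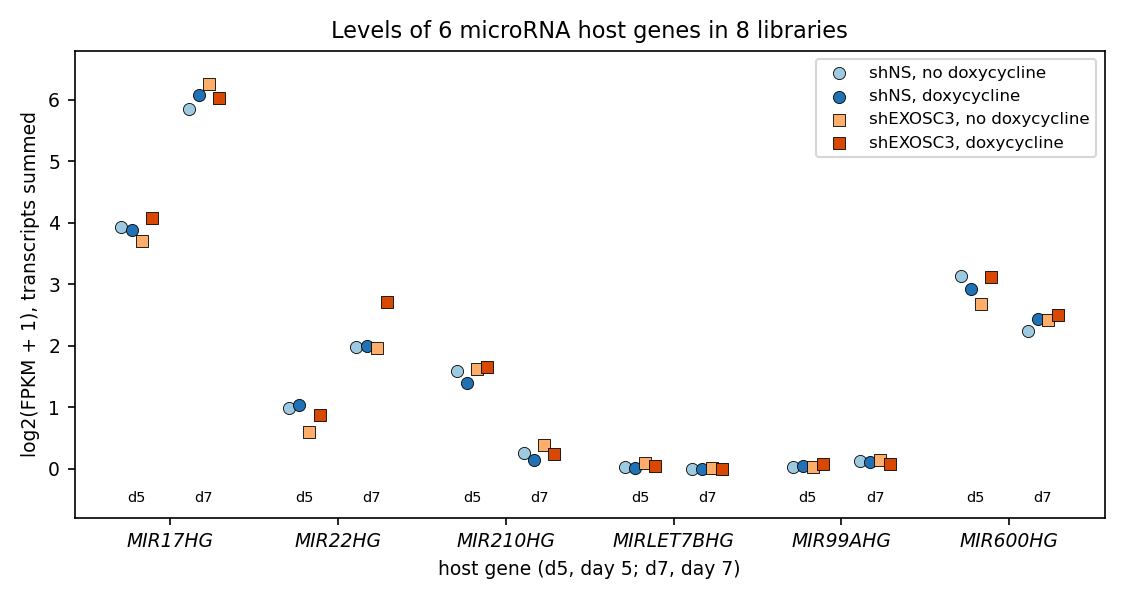
Level of each host gene in each of the 8 libraries as log2(FPKM + 1) of the summed transcripts, with day 5 (d5) to the left of day 7 (d7) for each gene; circles are shNS, squares shEXOSC3, and the darker shade is doxycycline. MIR17HG and MIR22HG are higher on day 7 and MIR210HG and MIR600HG lower, and MIR22HG in treated shEXOSC3 on day 7, at 5.52 FPKM, stands above the other libraries of its day.

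With doxycycline in shEXOSC3, none of the hosts passed the size rule against shNS. EXOSC3, the targeted gene, had adjusted differences of -1.11 on day 5 and -0.84 on day 7, so it passed on day 5 only. Staying under the rule therefore does not show that a gene stayed the same. The adjusted differences of 0 of 4 hosts reached 1 in either direction. Of all genes 2.43% did so on day 5 (1.51% upward, 0.923% downward) and 3.96% on day 7 (2.2% and 1.75%), so this count is near what the background gives. MIR22HG was the 1 host above 0 on both days, 0 hosts were below 0 on both, and 3 were above 0 on day 5 and below 0 on day 7. Over all genes 26% were above 0 on both days and 28.9% below, and 0.274% and 0.16% passed on both days upward and downward. The median of the 4 hosts was 0.32 on day 5 and -0.07 on day 7, beside -0.00076 and -0.01 over all genes. Of the single doxycycline ratios of the 4 hosts, none (0 of 4) reached 2-fold on the log2(FPKM + 1) scale in any table. Of all genes 1.33% did so upward and 0.717% downward in the shEXOSC3 table of day 5. The upward and downward shares were 1.88% and 1.04% for shEXOSC3 on day 7, 0.717% and 0.602% for shNS on day 5, and 1.2% and 0.846% for shNS on day 7.

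A fit over all genes with limma, in which the 2 days served as the observations of each line, called 0 of 13116 genes at an adjusted p of 0.05 (0%), with 769 genes (5.86%) under an unadjusted p of 0.05 and a smallest adjusted p of 0.0978. That fit sets the difference between lines against the spread between days, which are time points and not replicates. EXOSC3 itself had a mean difference of -0.98 ± 0.122 (SE) and an adjusted p of 0.747 in limma, so an adjusted p of that size does not show that a gene stayed the same. For MIR22HG the mean difference was 0.47 ± 0.232 (SE), higher on both days, with a limma adjusted p of 0.747. MIR600HG had 0.27 ± 0.212 (SE) with a limma adjusted p of 0.764, MIR210HG 0.11 ± 0.242 with 0.922, and MIR17HG -0.02 ± 0.242 with 0.987.

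**Figure D2:**
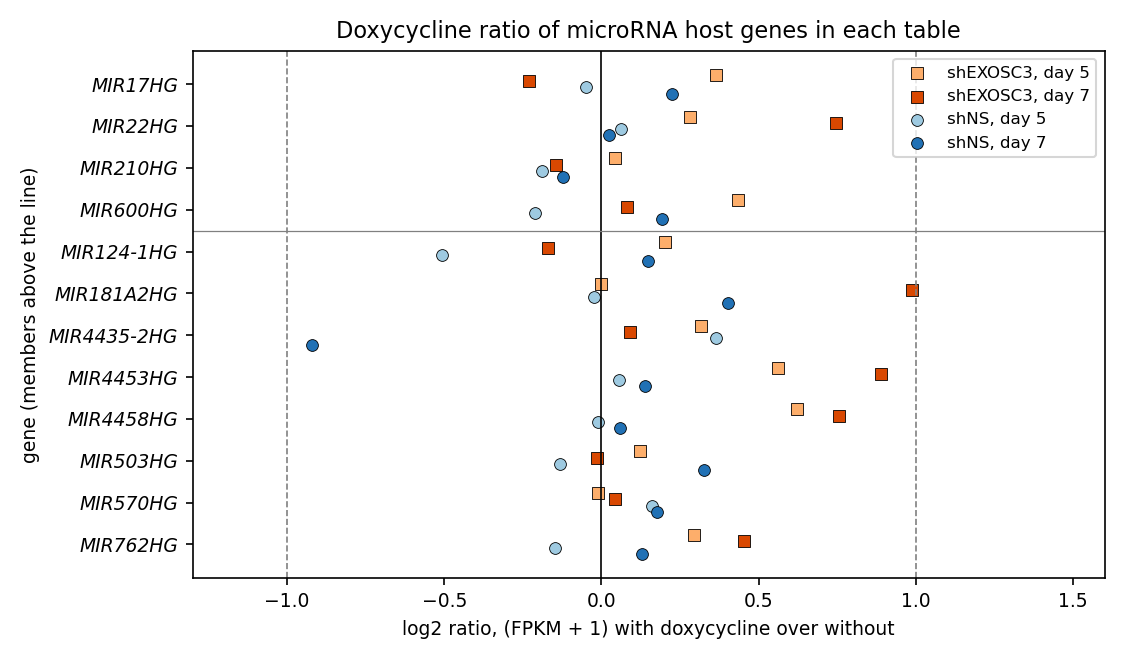
Log2 ratio of (FPKM + 1) with doxycycline over without, in each table, for the 4 hosts at a mean of at least 1 FPKM (above the grey line) and the 8 other genes named MIR...HG at that level (below it); squares are shEXOSC3, circles shNS, and dashed lines mark a log2 ratio of -1 and 1. MIR22HG in shEXOSC3 on day 7, at 0.75, is the farthest from 0 of the hosts. MIR22HG, MIR762HG, MIR4453HG and MIR4458HG have both shEXOSC3 points above both shNS points.

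MIR17HG makes the primary transcript of the oncogenic miR-17 to miR-92a polycistron, which MYC family and E2F proteins are known to activate. On day 5 it was at 12.1 FPKM without and 15.8 FPKM with doxycycline in shEXOSC3, and at 14.3 and 13.8 FPKM in shNS. The day 7 values were 75.4 and 64.2 FPKM in shEXOSC3, against 56.8 and 66.5 FPKM in shNS. Doxycycline thus went with a higher value in shEXOSC3 on day 5 and a lower one on day 7, and in shNS the reverse. The adjusted difference was 0.41 on day 5 and -0.46 on day 7. In the direct comparison of the treated libraries of both lines, which sets values across tables, it was 0.19 and -0.05, and with the most abundant transcript alone the day 5 value was 0.27.

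Among the hosts with estimated fragments, MIR17HG had the largest counts on day 7, while MIR600HG had larger ones on day 5. An estimated 493 and 606 fragments without and with doxycycline in shEXOSC3 on day 5, and 2575 and 1885 on day 7, gave depth-scaled ratios of 1.22 (95% interval 1.08 to 1.38) and 0.795 (0.749 to 0.844). In shNS the ratios were 0.965 (0.886 to 1.05) and 1.13 (1.05 to 1.20), from 874 and 1342 fragments on day 5 and 1487 and 2236 on day 7. These exact intervals cover counting error only, on fragments estimated from FPKM, and not the spread between cultures. The shEXOSC3 intervals of the 2 days lie on opposite sides of 1 and do not overlap, so counting error is smaller than the difference between days. Whether it exceeds the spread between cultures was not tested, since no group had a second library.

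The plot of counting intervals covers the 3 hosts whose transcript lengths were known; MIR22HG is missing because 3 of its transcripts could not be paired with single annotated models. MIR600HG, the host of miR-600, was the second by mean FPKM on both days. On day 5 it was at 5.43 FPKM without and 7.68 FPKM with doxycycline in shEXOSC3, and at 7.78 and 6.59 FPKM in shNS. By day 7 the values were 4.36 and 4.67 FPKM in shEXOSC3, against 3.72 and 4.39 FPKM in shNS. The untreated shEXOSC3 library was the lowest of day 5, and the treated one lay inside the shNS range. The depth-scaled ratio was 1.42 (95% interval 1.27 to 1.58) in shEXOSC3 and 0.847 (0.781 to 0.918) in shNS on day 5, from 542 and 771 against 1045 and 1407 estimated fragments. On day 7 the ratios were 1.07 (0.947 to 1.21) and 1.18 (1.02 to 1.36). The adjusted difference of MIR600HG was 0.64 on day 5, the largest of any host on that day, and -0.11 on day 7. Between the treated libraries alone it was 0.19 and 0.07, with the other sign on day 7.

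**Figure D3:**
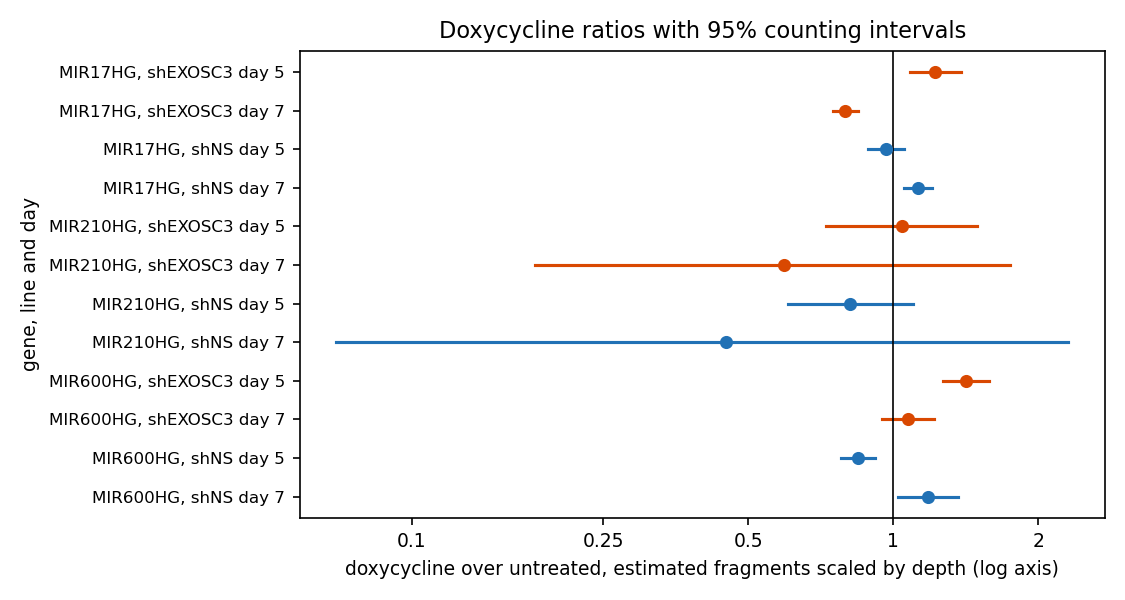
Ratio of estimated fragments with doxycycline over untreated, scaled by depth, on a log axis, with exact 95% counting intervals (bars) for MIR17HG, MIR210HG and MIR600HG in shEXOSC3 (orange) and shNS (blue). The MIR17HG and MIR600HG intervals are narrower than those of MIR210HG, and 2 of the 8 (MIR17HG in shNS on day 5 and MIR600HG in shEXOSC3 on day 7) contain 1, while MIR210HG on day 7 runs from 0.180 to 1.75 in shEXOSC3.

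MIR22HG is a stress-responsive host whose miR-22 has targets in growth and chromatin pathways. On day 5 it was at 0.511 FPKM without and 0.837 FPKM with doxycycline in shEXOSC3, and at 0.973 and 1.06 FPKM in shNS. Day 7 gave 2.89 and 5.52 FPKM in shEXOSC3, and 2.94 and 3.003 FPKM in shNS. The treated shEXOSC3 library of day 7 stood above the 3 others of that day, which lay close to each other, and on day 5 both shEXOSC3 libraries lay below both shNS libraries. The FPKM ratio was 1.64 on day 5 and 1.91 on day 7 in shEXOSC3, and 1.09 and 1.02 in shNS. The adjusted difference was 0.22 on day 5 and 0.72 on day 7, the largest of any host on day 7. The day 5 direction depended on the setting: it was 0.50 with a pseudocount of 0.1 FPKM, -0.60 with the most abundant transcript alone and -0.16 between the treated libraries. On day 7 the lowest and highest values over the alternatives were 0.40 and 0.88.

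The transcripts of MIR22HG were all higher with doxycycline in shEXOSC3 on day 7 and differed in direction in shNS. NR_028504, which carries miR-22 in an exon, was at 2.11 and 2.63 FPKM without and with doxycycline in shEXOSC3 on day 7, and at 2.42 and 1.19 FPKM in shNS. NR_028505 was at 1.09 FPKM in the treated shEXOSC3 library of day 7 and at or below 0.105 FPKM in the 7 others. NR_028502 was at 0.602 and 1.30 FPKM in shEXOSC3 and 0.170 and 0.255 FPKM in shNS on day 7. NR_028503 was at 0.168 and 0.497 FPKM in shEXOSC3 and at 0.352 and 1.4996 FPKM in shNS on day 7. The higher sum in treated shEXOSC3 cells on day 7 was thus spread over all 4 transcripts, while in shNS NR_028504 was lower with doxycycline and the 3 others higher. At these levels the division of shared fragments among overlapping models decides single transcripts. In the authors' deposited tables, whose test sets 1 library against 1 library, the 4 MIR22HG transcripts had a smallest p of 0.0866, for NR_028502 in shNS on day 5 (q 0.875). The smallest q among all 6 hosts in the authors' deposited tables was 0.636, for NR_028503 in shNS on day 7. Of the 56 member entries in the authors' deposited tables, 20 were tested and 36 were marked as not tested.

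The summed fibroblast or stromal markers were also higher with doxycycline in shEXOSC3 on both days, and higher on day 7. In shEXOSC3 they were at 100.3 FPKM without and 138 FPKM with doxycycline on day 5, then 209 and 227 FPKM on day 7. The shNS sums were 99.2 and 108 FPKM on day 5, then 183 and 169 FPKM on day 7. THY1, a surface protein that embryonic stem cells also carry, made up most of each sum, with 74.1 to 107 FPKM on day 5 and 143 to 197 FPKM on day 7. Other markers of the list went differently. PDGFRB was at 2.14 to 4.15 FPKM on day 5 and lower, at 1.07 to 1.90 FPKM, on day 7, and COL1A2 at 10.7 to 16.7 FPKM and then 9.85 to 10.8 FPKM. COL1A1 was at 4.52 and 9.11 FPKM without and with doxycycline in shEXOSC3 on day 5, but at 20.03 and 15.99 FPKM on day 7. The defining markers DCN and LUM were at 0. The part of these markers in the MIR22HG values, and in the differences between days below, was not tested.

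MIR210HG hosts miR-210, the microRNA best known as induced by low oxygen, and the cells were grown at 5% oxygen. On day 5 it was at 2.06 FPKM without and 2.16 FPKM with doxycycline in shEXOSC3, and at 2.01 and 1.63 FPKM in shNS. All were lower on day 7, with 0.300 and 0.175 FPKM in shEXOSC3 and 0.196 and 0.0979 FPKM in shNS. The treated library was slightly the higher in shEXOSC3 on day 5 and the lower in the other 3 tables. The adjusted difference was 0.23 on day 5 and -0.02 on day 7; with a pseudocount of 0.1 FPKM the day 7 value was 0.04. Only 3 to 11 estimated fragments stood behind a day 7 value, against 63 to 106 on day 5, so a doxycycline effect on day 7 was not detectable at this depth. The day 7 ratios were 0.593 (95% interval 0.180 to 1.75) in shEXOSC3 and 0.449 (0.0697 to 2.31) in shNS.

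MIRLET7BHG and MIR99AHG host let-7 family microRNAs, whose maturation LIN28A and LIN28B are known to block in embryonic stem cells. MIRLET7BHG was at 0.0662 and 0.0263 FPKM without and with doxycycline in shEXOSC3 and at 0.0197 and 0.00622 FPKM in shNS on day 5. On day 7 it was at 0.0111 FPKM in untreated shEXOSC3 and listed at 0 in the other 3 libraries. MIR99AHG was at 0.0177 and 0.0560 FPKM in shEXOSC3, and 0.0137 and 0.0253 FPKM in shNS, on day 5. The day 7 values of MIR99AHG were 0.108, 0.0502, 0.0887 and 0.0827 FPKM in the same order. Over both genes and all 8 libraries the highest value was 0.108 FPKM, too low for a difference between libraries to be detectable. LIN28A, by contrast, was at 436 to 633 FPKM over the 8 libraries and LIN28B at 64.9 to 116 FPKM.

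On the log2 scale MIR17HG, MIR22HG and MIR210HG differed more between the days than between treated and untreated libraries. This did not hold throughout for MIR600HG. Its doxycycline ratio in shEXOSC3 on day 5 was 0.43, and its difference between days in untreated shEXOSC3 was -0.26. Day 7 and day 5 values come from separately made tables and, as labelled, from separate harvests, so scale, harvest and time cannot be told apart. MIR17HG went from a mean of 14.0 FPKM on day 5 to 65.7 FPKM on day 7, a ratio of 4.70, and MIR22HG from 0.845 to 3.59 FPKM, a ratio of 4.24. MIR210HG went from 1.97 to 0.192 FPKM, 10.2-fold lower, and MIR600HG from 6.87 to 4.29 FPKM. In each of these 4 genes the libraries of the days did not overlap: MIR17HG and MIR22HG had all 4 day 7 libraries above all 4 day 5 libraries, as did 27.2% of all genes, and MIR210HG and MIR600HG had them below, as did 37.1% of all genes. By size, MIR17HG was at least 2-fold higher on day 7 in all 4 combinations of line and treatment, as were 4.36% of all genes, and MIR210HG at least 2-fold lower in all 4, as were 8.73%. So a separation of the days was common in the tables, and a 2-fold one in all 4 combinations was less so.

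On the log2 scale, day 7 minus day 5 was 2.55 without and 1.95 with doxycycline in shEXOSC3 and 1.92 and 2.19 in shNS for MIR17HG, a mean of 2.15. For MIR210HG it was -1.24, -1.43, -1.33 and -1.26 in the same order, a mean of -1.31. MIR22HG had 1.36, 1.83, 0.998 and 0.959, a mean of 1.29, with both shNS values just under the size rule. MIR600HG had -0.26, -0.61, -0.89 and -0.49, a mean of -0.57. The median over all genes was -0.09, with MIR17HG and MIR22HG above it and MIR210HG and MIR600HG below. MIR210HG is low enough for the pseudocount to matter, with a mean of -2.86 at 0.1 FPKM and -0.42 at 5 FPKM.

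The difference between days followed the GC content of transcripts over the whole table. With genes split into 10 equal groups by GC content, the median of day 7 minus day 5 ran from 0.34 in the group of lowest GC to -1.05 in that of highest GC. MIR17HG, with 37.7% GC, lay 1.82 above the median of its group, and MIR22HG, with 43.8% GC, 1.17 above. MIR600HG, with 54.0% GC, lay at -0.30 relative to its group. MIR210HG, with 58.3% GC, lay at -0.58 relative to its group, in which 21.9% of the genes were at least 2-fold lower in all 4 combinations. With ratios centred within these groups, the mean of MIR210HG was -0.59, no longer past the size rule, while MIR17HG still passed it. The part of GC content in these differences was not tested.

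**Figure D4:**
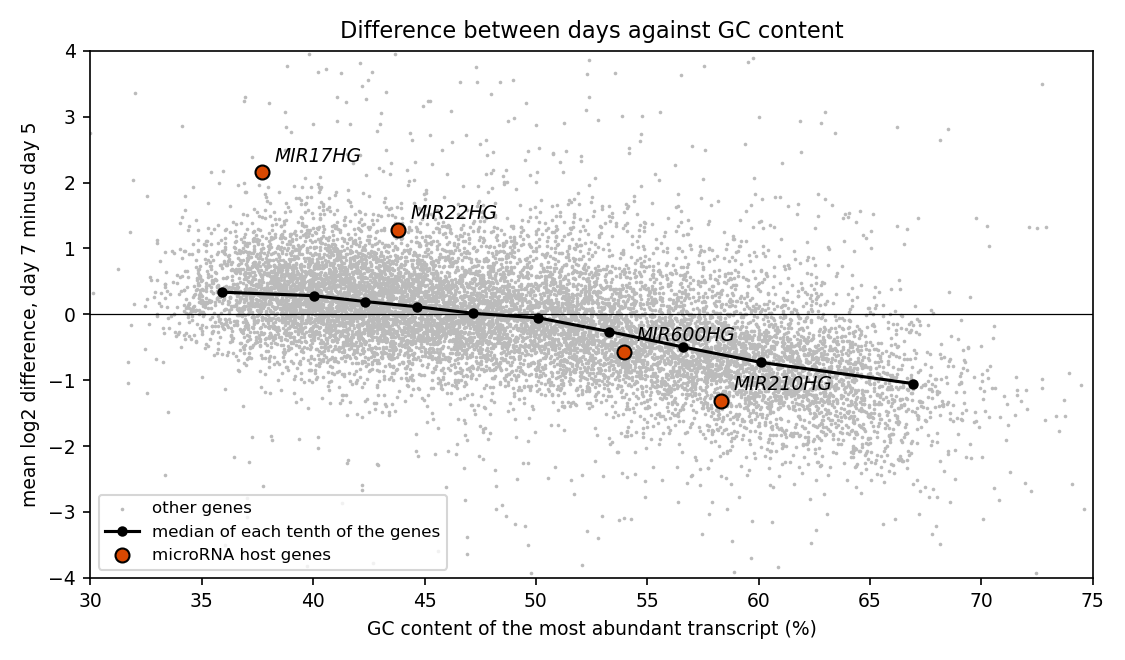
Mean log2 difference of day 7 minus day 5 over the 4 combinations of line and treatment, against the GC content of the most abundant transcript in percent, for the genes at a mean of at least 1 FPKM with an annotated model (grey; some lie beyond the axes), the median of each of 10 equal groups by GC content (black) and the 4 hosts (orange). The black line falls from 0.34 to -1.05, MIR17HG and MIR22HG lie above it, and MIR210HG and MIR600HG below.

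The 2 transcripts of MIR17HG did not contribute equally to its difference between days. NR_027350, the long form with the hairpins in its exon, was at 10.3 and 12.2 FPKM without and with doxycycline in shEXOSC3 and at 14.2 and 13.8 FPKM in shNS on day 5. The long form then measured 36.4 and 27.4 FPKM in shEXOSC3 on day 7, and 31.7 and 34.7 FPKM in shNS. All 4 day 7 values of the long form lay above all 4 day 5 values, with means of 12.6 and 32.6 FPKM.

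NR_027349, the short form from which the hairpins are spliced out with the intron, was at 1.797 and 3.65 FPKM in shEXOSC3 and at 0.0252 and 0.00802 FPKM in shNS on day 5. On day 7 it was at 39.0 and 36.8 FPKM in shEXOSC3, with 25.04 and 31.8 FPKM in shNS. Its share of the summed FPKM on day 5 was 14.9% and 23.0% in shEXOSC3, against 0.177% and 0.0583% in shNS, and 44.1 to 57.3% on day 7. By FPKM the short form was thus a minor part of the gene in every day 5 library and about as abundant as the long form in every day 7 library. In estimated fragments the short form had 22.7 and 46.3 in shEXOSC3 and under 1 in each shNS library on day 5, against 266 to 588 on day 7. These fragments were computed back from the same FPKM and are no separate support. The 2 models overlap, so their FPKM depend on how shared fragments were divided between them. The part of that division in these shares was not tested.

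Because the short form has 931 bases and the long one 2845, the sum of FPKM weights the short form more than a count of fragments does. In depth-scaled fragments MIR17HG was 4.38 and 2.85 times as high on day 7 without and with doxycycline in shEXOSC3, and 2.72 and 3.17 times in shNS. With the long form alone the mean log2 difference was 1.30 and still past the size rule in all 4 combinations. On both days the short form took a larger share in treated than in untreated shEXOSC3 cells, and in shNS this held only on day 7. In the authors' deposited tables the doxycycline comparison of NR_027349 had p 0.634 and 0.909 in shEXOSC3 on days 5 and 7 and p 0.643 in shNS on day 7.

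**Figure D5:**
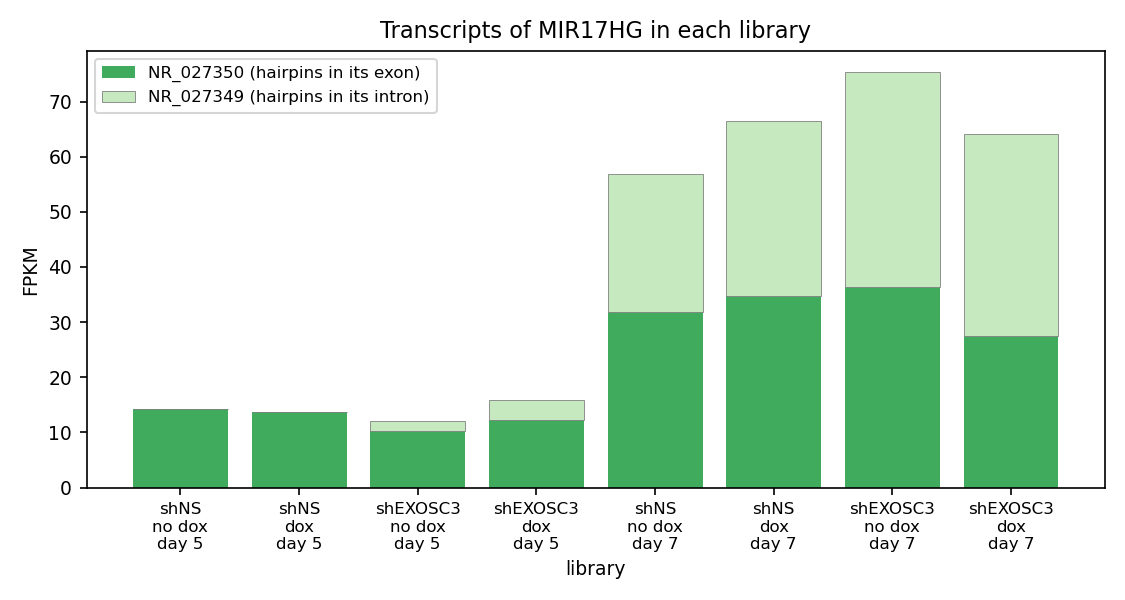
FPKM of the 2 MIR17HG transcripts in each library, stacked, with the long form (hairpins in its exon) in dark green and the short form (hairpins in its intron) in pale green. The short form is 0.0583 to 23.0% of the bar on day 5 and 44.1 to 57.3% on day 7.

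Entries for the microRNAs themselves gave almost no signal. Of the 16 microRNA entries inside the 6 loci, 12 were at 0 FPKM in all 8 libraries and 4 were above 0 in 1 library each. These were MIR17 at 18.7 FPKM in untreated shEXOSC3 on day 5, MIR210 at 14.0 FPKM in treated shEXOSC3 on day 5, MIR3619 at 32.2 FPKM in treated shEXOSC3 on day 7 and MIR4763 at 11.8 FPKM in treated shNS on day 5. An entry as short as a hairpin reaches such a value with few fragments, and none of the values here measures a mature microRNA.

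The other genes whose symbols follow the same MIR...HG pattern gave a wider set of hosts. Of 39 such symbols, 8 had a mean of at least 1 FPKM. Their median adjusted difference was 0.35 on day 5 and 0.45 on day 7, beside -0.00076 and -0.01 over all genes; 4 were above 0 on both days, 1 was below, and 3 changed side. MIR4458HG was at 0.779 FPKM without and 1.74 FPKM with doxycycline in shEXOSC3 on day 5, then 2.04 and 4.13 FPKM on day 7. The shNS values of MIR4458HG were 0.311 and 0.302 FPKM, then 1.03 and 1.12 FPKM. MIR4453HG had 2.33 and 3.92 FPKM, then 2.32 and 5.14 FPKM in shEXOSC3, where shNS had 2.35 and 2.48 FPKM, then 2.01 and 2.32 FPKM. In both genes the treated shEXOSC3 library was the highest of its day on both days. Their adjusted differences were 0.63 and 0.70 for MIR4458HG and 0.51 and 0.75 for MIR4453HG on days 5 and 7, and the limma adjusted p was 0.747 for each (mean difference 0.66 ± 0.212 and 0.63 ± 0.184, SE). MIR4435-2HG, at 1.01 on day 7 and -0.05 on day 5, was the 1 gene of the 8 past the size rule. Of all genes 3.96% passed it on day 7, while 26% were above 0 on both days and 28.9% below.

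The genes that process microRNAs did not pass the size rule with doxycycline. Of all genes 2.43% passed it on day 5 and 3.96% on day 7, so 0 of 17 is near the background. Of 17 biogenesis genes, all of them tested, 0 passed the size rule on either day; the median adjusted difference was 0.04 on day 5 and -0.06 on day 7, with 5 genes above 0 on both days, 6 below 0 and 6 that changed side. AGO1, an Argonaute, had 0.53 and 0.16, and DIS3L2, the exonuclease that degrades uridylated let-7 precursors, had 0.04 and 0.46. AGO3 had -0.10 and -0.59, and XRN2, a nuclear exonuclease, had -0.23 and -0.29. Between the days 3 of the 17 were at least 2-fold higher on day 7 in all 4 combinations, beside 4.36% of all genes, and 1 was at least 2-fold lower, beside 8.73%. DROSHA, the nuclease that releases hairpins from their hosts, was at 9.34 to 11.8 FPKM on day 5 and 26.1 to 31.1 FPKM on day 7. The other two higher genes were TUT4 and TUT7, which add uridines to let-7 precursors, and the lower one was TARBP2, a partner of DICER1, with a mean of 51.7 FPKM on day 5 and 14.9 FPKM on day 7.

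Transcription factors known to act on these hosts gave no common direction. Of 10 listed, 9 were tested and 0 passed the size rule, beside 2.43% of all genes on day 5 and 3.96% on day 7. The medians were 0.08 and -0.18, with 2 above 0 on both days, 3 below 0 and 4 that changed side. EPAS1, a hypoxia-inducible factor, had 0.08 and 0.30, MYCN -0.28 and -0.24, and E2F1 -0.17 and -0.26. MYC, a known activator of MIR17HG, was at 12.8 to 17.2 FPKM on day 5 and 24.8 to 34.2 FPKM on day 7. MYCN went the other way, with 52.9 to 62.9 FPKM on day 5 and 29.5 to 40.3 FPKM on day 7. MAX, the partner of MYC, was the 1 factor at least 2-fold higher on day 7 in all 4 combinations, with means of 13.3 and 63.4 FPKM. E2F1 was the 1 at least 2-fold lower, with means of 11.3 and 2.34 FPKM. Of all genes 4.36% were that much higher and 8.73% that much lower in all 4.

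Genes induced by low oxygen lay on both sides of 0. Of 14 listed, 13 were tested and 0 passed the size rule for doxycycline, beside 2.43% of all genes on day 5 and 3.96% on day 7. The medians were -0.25 and 0.15, with 3 above 0 on both days, 3 below 0 and 7 that changed side. ANKRD37 had 0.74 and 0.91, NDRG1 0.17 and 0.41, ADM -0.23 and -0.52, and EGLN3 -0.33 and -0.19. The median difference of the 13 between days was 0.23, where MIR210HG had -1.31. P4HA1, a collagen hydroxylase, was the 1 gene at least 2-fold higher on day 7 in all 4 combinations, with means of 60.4 and 155 FPKM. SLC2A1, a glucose transporter, was the 1 at least 2-fold lower, with means of 143 and 60.1 FPKM. Of all genes 4.36% were that much higher and 8.73% that much lower in all 4.

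Known targets of these microRNAs were read as a list, with no inference to the microRNAs. All 17 listed were tested; the medians were 0.08 on day 5 and -0.10 on day 7, with 4 above 0 on both days, 6 below 0 and 7 that changed side. CDKN1A, the p21 cell cycle inhibitor and a target of miR-17 and miR-20a, was the 1 gene past the size rule, on day 7. Of all genes 2.43% passed it on day 5 and 3.96% on day 7, so 1 of 17 is near the background. In shEXOSC3 CDKN1A was at 29.3 FPKM without and 37.4 FPKM with doxycycline on day 5, then 20.4 and 33.2 FPKM on day 7. The shNS values were 27.0 and 19.6 FPKM on day 5, then 14.8 and 9.93 FPKM on day 7. The treated library was the higher in shEXOSC3 and the lower in shNS on both days, with adjusted differences of 0.78 and 1.21 and a limma mean difference of 0.99 ± 0.156 (SE, adjusted p = 0.747). The other genes at the ends of this list were IGF2BP1, a let-7 target, with 0.51 and -0.10, GPD1L, a miR-210 target, with -0.62 and -0.10, and CDC25A, a let-7 target, with -0.27 and -0.28. Between the days 0 of the 17 were at least 2-fold higher or lower in all 4 combinations, beside 4.36% of all genes higher and 8.73% lower.

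The genes whose log2 pattern over the 8 libraries was most like each host were searched among 8961 genes with a mean of at least 5 FPKM. ZDHHC3 (Pearson r = 0.999) and FOXJ3 (0.998) were nearest to MIR17HG, and SLC25A5 (0.998) and COL6A1 (0.997) to MIR210HG. RNVU1-19 (0.994) and RANBP6 (0.992) were nearest to MIR22HG, and ESPL1 and LCMT1 (0.971 each) to MIR600HG. The 8 libraries fall into 2 days, and each of these genes separated the days as its host did. The correlations therefore include that shared split, besides any likeness within a day, and carry no p. They also leave out the size of a difference. ZDHHC3, at 5.00 to 5.31 FPKM on day 5 and 6.75 to 7.00 FPKM on day 7, differed less between days than MIR17HG. RNVU1-19, at 13.5 to 50.7 FPKM and then 364 to 2200 FPKM, differed more than MIR22HG.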

How the data were processed

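Total RNA of H1 cells, depleted of ribosomal RNA, was used for ScriptSeq v2 libraries, per the labels' protocols. The sample titles gave the groups. CASAVA 1.8, TopHat, Cufflinks and hg19 (GRCh37) are named in the submitters' processing notes. Which versions of TopHat and Cufflinks, gene annotation, normalization option and counting strand were used was not given in the sources used here. Without a stated strand, reads of a host and of an RNA opposite to it cannot be told apart. The data are 4 tables, each with the untreated and the treated library for a given line and day. The authors deposited FPKM for each RefSeq transcript, per the file headers, together with a p-value and a q-value for 1 library against 1 library. Starts of loci count from 0 in the files and were printed from 1.

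Accessions were matched to symbols through a RefSeq table, which gave a symbol to 48147 of 49235 transcripts. FPKM were summed by gene, and genes were left out if any transcript was marked as failed or as too deep in a table (164 transcripts). Log2 values used a pseudocount of 1 FPKM and the minimum was a mean of 1 FPKM. Differences were fitted with limma 3.58.1 (R 4.3.3) on the 4 ratios, with a variance trend, 2 residual degrees of freedom and adjustment by Benjamini and Hochberg, after the script was tested on simulated data. Tables were made with Python 3.11.15, pandas 2.3.3 and scipy 1.17.1.

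FPKM keep no depth, so it was estimated from the spacing of low values at loci with 1 transcript over 1000 bases, with GENCODE 29 lengths and a fragment length of 200 bases. Fragment length and spacing were searched in each library for the best agreement with whole fragments. Of the values used, 76.3 to 77.1% then came within 0.15 of a whole fragment, a fitted share and not an independent check. Such fragments served for intervals only, and no count test was run on them. GC content was that of the GENCODE 29 model, known for 97.5% of the genes tested.

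The members and gene lists were chosen with earlier results of these data known. Named genes were the 6 hosts, other MIR...HG genes at the minimum, microRNA entries and overlapping genes inside the loci, EXOSC3, the 2 highest and 2 lowest of each list by the mean adjusted difference, and the 2 genes most like each host. Of the genes named by that rule, 1 is not reported here. DROSHA, TUT4, TUT7, TARBP2, MYC, MAX, P4HA1, SLC2A1, LIN28A, LIN28B and the cell type markers were named outside that rule, with values seen. Alternatives changed the pseudocount, the minimum, the transcript choice, the scaling, the untreated controls, the failed estimates and the variance trend; the GC correction and the alternatives for the difference between days were chosen after seeing the data.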

Additional observations from a re-analysis of the deposited data

Results flagged for a closer look

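In 3 of the 4 hosts with a mean of at least 1 FPKM the adjusted difference of the 2 days had opposite signs. Day 7 minus day 5 it was -0.87 for MIR17HG, -0.75 for MIR600HG and -0.26 for MIR210HG. With 1 library per group these differences between days were not tested. The MIR210HG value rests on 3 to 11 estimated fragments per library on day 7, and its day 7 difference was -0.02, close to 0.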

How the results depend on the processing

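No paired analysis was possible because each group has 1 library and the titles carry no replicate numbers; for the same reason no library could be left out of a group. All 84 adjusted differences of the 6 hosts under the 7 alternatives stayed on the same side of the size rule, the largest at 0.88 in absolute value, and 6 of them had the opposite sign of the reported value. Of 13116 genes, 319 (2.43%) passed the size rule on day 5 and 519 (3.96%) on day 7. With a pseudocount of 0.1 FPKM 539 (4.11%) and 833 (6.35%) of the same genes passed. With the most abundant transcript 870 (6.85%) and 1423 (11.2%) of 12694 genes passed. A minimum of 5 FPKM left 8964 genes, of which 208 (2.32%) and 344 (3.84%) passed, shares close to the reported ones. On both days 36 genes passed upward and 21 downward; upward it was 64 with a pseudocount of 0.1 FPKM, 21 with 5 FPKM, 73 with the most abundant transcript and 19 between treated libraries across tables, and downward 66 with the most abundant transcript. Without a variance trend limma called 2 genes instead of 0, with 717 under an unadjusted p of 0.05 and a smallest adjusted p of 0.0264. Over the alternatives the limma adjusted p of the hosts ran from 0.748 to 0.958 for MIR22HG, 0.765 to 0.830 for MIR600HG, 0.844 to 0.9502 for MIR210HG and 0.927 to 0.994 for MIR17HG. The mean difference of day 7 minus day 5 of MIR22HG passed the size rule in all 4 combinations with a pseudocount of 0.1 FPKM (1.95) and with ratios centred on the median (1.37). That of MIR210HG no longer passed with a pseudocount of 5 FPKM (-0.42) or centred by GC content (-0.59). The cause of these shifts was not tested.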

Other observations

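Among the 8 other MIR...HG genes at a mean of at least 1 FPKM, the days also differed. MIR503HG, host of miR-503 on the X chromosome, went from a mean of 0.122 FPKM on day 5 to 2.16 FPKM on day 7 and was at least 2-fold higher in all 4 combinations of line and treatment. MIR181A2HG went from 0.339 to 2.77 FPKM, and its highest library was treated shEXOSC3 on day 7 at 4.67 FPKM, against 1.81 to 2.72 FPKM in the 3 others of that day. MIR4435-2HG went the other way, from 25.05 to 4.57 FPKM, and was at least 2-fold lower in all 4. Its day 7 values were 4.49 and 4.86 FPKM without and with doxycycline in shEXOSC3 and 6.15 and 2.77 FPKM in shNS, so that its adjusted difference of 1.01 came mostly from a lower treated shNS library. MIR762HG was above 0 on both days (0.44 and 0.32), MIR570HG below 0 on both (-0.17 and -0.13), and MIR124-1HG had 0.71 and -0.32.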
